A study of Mus musculus with 9 samples.

Results

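The cadherin superfamily supplies much of the calcium-dependent adhesion between animal cells. In these data, its numbered cadherin (Cdh) genes and its protocadherin (Pcdh) genes were followed by mRNA level in mouse glioblastoma cells and in the astrocytes cultured with them. A gene was included when its Ensembl identifier in the count table carried a GRCm38 symbol made of Cdh and a number, or a symbol starting with Pcdh, and was annotated as protein-coding. The rule gave 92 gene identifiers of 49315 in the table, of which 21811 are protein-coding. They comprised 23 numbered cadherins, 12 non-clustered protocadherins and 57 clustered protocadherins. The numbered cadherins were 5 type I classical, 13 type II classical and 5 other genes, and the clustered protocadherins were 14 alpha, 22 beta and 21 gamma genes.

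Classical cadherins bind like molecules on the neighbouring cell through their extracellular repeats and link to actin through catenins bound to their cytoplasmic tail. Type I and type II members differ in their outermost repeat and, in general, do not pair with each other. Non-clustered protocadherins of the delta family adhere more weakly and signal through their own tails, whereas the clustered alpha, beta and gamma genes lie in tandem arrays whose alternative promoters give each neural cell a combination of isoforms used in self-recognition and, in glia, in contact with neurons.

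RNA sequencing covered 9 libraries in 3 groups of 3, all from co-cultures of 2 days. SB28 is a mouse glioblastoma line, here expressing GFP. It was grown with astrocytes prepared from the brains of newborn mito::mKate2 mice on a C57BL6 background, whose transgene, Tg(CAG-mKate2)1Poche/J, is driven by the broadly active CAG promoter and labels mitochondria with the red protein mKate2. Cells were sorted into astrocytes, SB28 cells without mKate2 signal (mKate2-) and SB28 cells that had taken up mKate2 signal (mKate2+), so that all groups shared the co-culture and its medium with low serum, N2, EGF and FGF. All SB28 libraries derive from 1 line. The study describes its replicates as 3 separate co-cultures, from which cells of all 3 groups were sorted. Libraries of different groups may thus share a co-culture, but the labels do not say which do, and the main fits did not pair them. Total counts ran from 24454561 to 35135662 in astrocytes, from 27187348 to 35891589 in mKate2- SB28 and from 34175016 to 39287841 in mKate2+ SB28. Levels are given as CPM, the counts of a gene per 1000000 counts of the library. In bulk samples, fewer cells of a type and less RNA per cell cannot be told apart.

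The astrocyte label was checked against marker genes, of which most, but not all, were higher in the astrocyte libraries. Slc1a3, a glutamate transporter of astrocytes, stood at 173, 177 and 236 CPM in the astrocyte libraries and between 0.56 and 2.38 CPM in every SB28 library, and Apoe, a lipid carrier secreted by astrocytes, at 264, 260 and 270 CPM against 1.96 to 3.22 CPM. Of 15 astrocyte markers, 12 averaged above 1 CPM in the astrocytes, while Gjb6, an astrocyte connexin, was at 0 in all 9 libraries and Ntsr2 and S100b were at or near 0. Against each SB28 group, 12 of the 15 were tested and 10 called lower in SB28. Gja1, a connexin gene, had the highest mean over the 3 groups among these markers, though Apoe was higher in astrocytes. It was not called, at 168, 212 and 216 CPM in astrocytes and 241 to 284 CPM in SB28 libraries, by log2 fold changes of 0.43 ± 0.12 and 0.55 ± 0.13. Olig1 and Olig2, transcription factors of the oligodendrocyte lineage, were high in the astrocyte libraries at 541, 241 and 304 CPM and at 268, 159 and 155 CPM, with Sox10 at most 0.06 CPM. Markers of other cells were present too. The 9 fibroblast, meningeal and mural markers summed to 1520, 1638 and 1297 CPM in astrocytes and to between 601 and 863 CPM in SB28 libraries, with Col1a2, a collagen gene, the most abundant. The 7 neural stem and radial glia markers summed to 13147, 12404 and 9131 CPM in astrocytes and to between 7064 and 8478 CPM in SB28 libraries, nearly all from Vim, the gene of the filament protein vimentin.

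The 9 neuronal markers summed to 54.8, 99.5 and 90.6 CPM in astrocytes and to between 38.7 and 49.0 CPM in SB28 libraries. Map2, a microtubule protein gene, was the most abundant of them, 5 averaged above 1 CPM in astrocytes, and Rbfox3 was at 0 throughout. Of the 5 tested, Stmn2 and Gad1 were called lower in both SB28 groups, Map2 was called lower in mKate2+ cells, and Tubb3, the neuronal tubulin, went the other way, at 0.95 ± 0.19 in mKate2- cells and called higher at 1.12 ± 0.20 in mKate2+ cells. Gad1 was not tested without astrocyte replicate 1 or 3, and the call of Map2 was lost without replicate 2. The 9 markers of microglia and macrophages summed to 38.1 to 56.5 CPM in astrocytes and 50.4 to 64.8 CPM in SB28 libraries, mostly Tmem119. Of the 3 tested, Tmem119 was not called, at 0.72 ± 0.19 in mKate2- and 0.85 ± 0.21 in mKate2+ cells. Cd68 (-2.44 ± 0.43 and -2.19 ± 0.43) and P2ry12 (-6.50 ± 1.11 and -5.39 ± 0.97) were called lower in both SB28 groups. P2ry12 was not tested in either comparison without astrocyte replicate 1 or 2. The 8 endothelial markers, which include the member Cdh5, summed to 48.7 to 61.2 CPM in SB28 libraries, nearly all from Flt1, the gene of a VEGF receptor, while Cldn5 and Emcn did not exceed 0.03 CPM in any library. Flt1 was not called in either comparison with astrocytes, but without astrocyte replicate 3, whose values follow, 1 endothelial marker, Flt1, was called higher in each. The part of these other cells in the results was not tested.

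Astrocyte replicate 3 stood apart for a subset of the genes. It exceeded 3 times the higher of the other astrocyte libraries, at above 1 CPM, for 5 of the 48 detected members (those that exceeded 1 CPM in 2 or more libraries), namely Cdh4, Cdh5, Cdh11, Pcdhac2 and Pcdhga2. The same held for 265 of 13450 genes (1.97%). In that library, the summed level of 8 endothelial markers was 199.7 CPM against 7.61 and 14.6 CPM in the other astrocyte libraries, of which Flt1 made up 192 CPM with Cldn5 and Emcn at 0. The summed level of 5 ependymal markers was 81.5 CPM against 12.2 and 9.84 CPM, mostly Foxj1 at 75.9 CPM, and that of the 15 astrocyte markers was 1909 CPM against 1172 and 1197 CPM. The part of these differences in the results was not tested. Values without astrocyte replicate 3 are given where a member whose call it decided could still be tested, and for each called fold change and class sum of the members described here that it moved by more than 1.5 times. Those of sums, means, count ratios and genes that are not members were added after the data were seen. Among the SB28 libraries, mKate2+ replicate 2 was the lowest for 45.5% of the 13450 genes and for 11 of the 48 detected members.

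Most members with measurable expression were lower in the tumor cells than in the astrocytes, and 3 were higher. The edgeR quasi-likelihood test with Benjamini-Hochberg adjustment over all genes was used, and a gene was called at an adjusted P under 0.05 with an absolute log2 fold change above 1. In mKate2- SB28 against astrocytes, 48 members passed the filter on low counts, 3 were called higher and 33 lower, when 11.5% of all 13356 genes tested were called higher and 22.4% lower. In mKate2+ SB28 against astrocytes, 48 members were tested, 3 were called higher and 33 lower, beside 12.2% and 22.8% of 13342 genes. These comparisons share the astrocyte libraries. The median log2 fold change of the members tested was -2.08 in mKate2- and -2.02 in mKate2+ cells, with -0.04 and -0.02 for all genes tested. The filter bears on these counts and medians, since in each comparison 16 of the 48 members had no SB28 library above 1 CPM and passed through the astrocytes alone, and all 16 were called lower. Of these, 14 were the same genes in both comparisons, namely Cdh4, Cdh19, Cdh22, Cdh23, Pcdhac2, Pcdhb14, Pcdhga1, Pcdhga2, Pcdhga4, Pcdhga9, Pcdhga10, Pcdhga11, Pcdhgb4 and Pcdhgb7. Pcdhga12 and Pcdhgb6 belonged to the comparison of mKate2- cells and Pcdhb16 and Pcdhgc4 to that of mKate2+ cells. Of the other 32, 3 were called higher, 17 lower and 12 were not called, again in each comparison, and their median log2 fold changes were -1.44 and -1.40. With at least 10 counts in every library, the medians were -1.55 and -1.69, and without astrocyte replicate 3 they were -1.49 and -1.54. Without astrocyte replicate 3, 42 members passed the filter, and the calls were 3 higher and 27 lower in mKate2- cells and 3 higher and 26 lower in mKate2+ cells. Over all genes, 1591 of 13040 were then called higher and 2745 lower in mKate2- cells, and 1579 of 13005 higher and 2719 lower in mKate2+ cells. Cdh4, Pcdhac2, Pcdhga2, Pcdhga9, Pcdhga10 and Cdh5, which had no call before, then no longer passed the filter. Pcdh1 in both comparisons and Pcdh17 in mKate2+ cells were then tested without a call. Pcdhac2, Pcdhga2, Pcdhga9 and Pcdhga10 also failed the filter without astrocyte replicate 2, Cdh4 without replicate 1 and Cdh23 without either of these. The calls of Cdh4, Pcdh1, Pcdh17, Pcdhb16, Pcdhga9 and Pcdhga10 were each lost in at least 1 comparison when 1 SB28 library was left out.

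The 3 members called higher in the tumor cells were Cdh26, Pcdh19 and Cdh6, and they came from 3 different classes. Cdh26 (ENSMUSG00000039155), a cadherin best known from epithelia, stood at 7.12, 8.77 and 9.31 CPM in astrocytes, at 46.9, 46.2 and 54.6 CPM in mKate2- SB28 and at 47.1, 41.1 and 50.04 CPM in mKate2+ SB28. Every SB28 library was above every astrocyte library, and the log2 fold change was 2.57 ± 0.15 (SE) in mKate2- cells (adjusted P = 1.09e-05, edgeR) and 2.53 ± 0.15 in mKate2+ cells (adjusted P = 1.8e-05). Pcdh19 (ENSMUSG00000051323), a delta-2 protocadherin that acts together with N-cadherin and is mutated in a female-limited epilepsy, stood at 15.99, 50.5 and 55.9 CPM in astrocytes, at 155, 213 and 195 CPM in mKate2- cells and at 166, 212 and 192 CPM in mKate2+ cells. The astrocytes were below all SB28 libraries although they spanned a wide range, and the log2 fold changes were 2.23 ± 0.41 (adjusted P = 0.00199, edgeR) and 2.30 ± 0.42 (adjusted P = 0.00233). Of its 10464 annotated exonic bases, all but 57 were free of overlap with another gene. Cdh6 (ENSMUSG00000039385), the type II K-cadherin of kidney and developing brain, stood at 11.3, 29.7 and 26.5 CPM in astrocytes, at 90.3, 85.3 and 86.9 CPM in mKate2- cells and at 90.4, 73.2 and 84.1 CPM in mKate2+ cells. The groups did not overlap, with log2 fold changes of 1.98 ± 0.30 (adjusted P = 0.000863, edgeR) and 1.95 ± 0.32 (adjusted P = 0.00144).

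The 3 genes differ in CpG content before their start. The 250 bases upstream of the RefSeq start (GRCm38.p6) are printed 5′ to 3′ on the strand of the gene, with CpG dinucleotides in capitals. CpG content was chosen as the feature to mark after the sequences were seen. Cdh22, a gene nearly without counts in the tumor cells and with the most CpG of any member window found, is shown for contrast. The windows are chr2:178430265-178430514 (plus strand) for Cdh26, chr15:13173676-13173925 (minus strand) for Cdh6, chrX:133688994-133689243 (minus strand) for Pcdh19 and chr2:165234738-165234987 (minus strand) for Cdh22.
Cdh26: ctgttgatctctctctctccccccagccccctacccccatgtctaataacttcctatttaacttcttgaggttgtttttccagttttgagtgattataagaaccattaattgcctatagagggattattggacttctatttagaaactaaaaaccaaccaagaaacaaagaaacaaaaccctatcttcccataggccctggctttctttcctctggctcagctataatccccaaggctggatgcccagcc
Cdh6: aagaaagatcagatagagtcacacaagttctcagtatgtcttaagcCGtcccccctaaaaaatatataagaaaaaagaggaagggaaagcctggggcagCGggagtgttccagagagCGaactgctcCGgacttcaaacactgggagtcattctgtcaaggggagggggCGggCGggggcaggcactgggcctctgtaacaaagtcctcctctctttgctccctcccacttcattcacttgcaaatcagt
Pcdh19: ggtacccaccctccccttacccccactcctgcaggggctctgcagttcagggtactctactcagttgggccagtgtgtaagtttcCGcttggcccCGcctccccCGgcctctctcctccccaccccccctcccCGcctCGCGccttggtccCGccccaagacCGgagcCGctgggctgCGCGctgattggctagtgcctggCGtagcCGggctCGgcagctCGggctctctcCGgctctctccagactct
Cdh22: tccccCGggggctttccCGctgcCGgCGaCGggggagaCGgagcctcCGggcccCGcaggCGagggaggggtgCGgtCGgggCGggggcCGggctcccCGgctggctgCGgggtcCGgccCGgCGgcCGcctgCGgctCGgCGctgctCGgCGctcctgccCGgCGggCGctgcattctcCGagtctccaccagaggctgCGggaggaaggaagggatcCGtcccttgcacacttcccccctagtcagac

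The Cdh26 window held 0 CpG dinucleotides, that of Cdh6 held 6, that of Pcdh19 held 16 and that of Cdh22 held 30, when the median over 32851 promoters was 6. Of those promoters, 94.1% had fewer CpG than Cdh22. Promoters were found for 22 members, 25 windows in all, with a median of 10 CpG and a maximum of 30, that of Cdh22. Among the other detected members with a window, those called lower held 5 (Cdh23), 7 (Pcdh7), 18 (Pcdh9) and 21 (Pcdh17). Those not called held 2 (Cdh10), 22 (Cdh24) and 23 (Pcdh18). A link between CpG content and level was not tested. The E-box letters CACCTG, bound by the Snail and ZEB repressors of E-cadherin, were searched on both strands (as CAGGTG on the other) and occurred in 17.2% of all promoters and in 3 of the 25 windows, in genes Cdh7 and Pcdh15. None of the 4 printed windows holds them. DNA methylation and factor binding were not measured.

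Among type I classical cadherins, Cdh2 carried nearly all the counts. Cdh2 encodes N-cadherin, the main classical cadherin of neural cells, and stood at 637, 662 and 735 CPM in astrocytes, at 213, 214 and 234 CPM in mKate2- SB28 and at 238, 165 and 229.6 CPM in mKate2+ SB28. All SB28 libraries were below all astrocyte libraries, by a log2 fold change of -1.61 ± 0.11 in mKate2- cells (adjusted P = 1.93e-05, edgeR) and -1.62 ± 0.15 in mKate2+ cells (adjusted P = 0.000121). Cdh1, the epithelial E-cadherin, averaged 0.38 CPM in astrocytes, 0.284 CPM in mKate2- and 0.213 CPM in mKate2+ cells. Its astrocyte mean came from replicate 3 alone, at 0, 0 and 1.14 CPM, and was 0 without that library. Cdh1 did not pass the filter, nor did Cdh3 and Cdh15. Cdh4, the retinal R-cadherin, stood at 1.39, 0.61 and 84.3 CPM in astrocytes, at 0.11, 0.14 and 0.07 CPM in mKate2- cells and at 0.25, 0.03 and 0.09 CPM in mKate2+ cells. Its level in astrocytes was thus set by replicate 3. It had no SB28 library above 1 CPM and passed the filter through the astrocytes alone. It was called lower in both comparisons (adjusted P = 0.0139 and 0.0163, edgeR), and without astrocyte replicate 3 it did not pass the filter. DESeq2 did not call Cdh4 in either comparison.

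Type II classical cadherins went in both directions. The summed level of the class was 112 ± 73.8 CPM in astrocytes, 103 ± 1.91 CPM in mKate2- and 98.2 ± 11.1 CPM in mKate2+ cells (SD, n = 3, not tested). The astrocyte sum rested on replicate 3, at 54.2, 85.9 and 195 CPM, and averaged 70.1 CPM without it. Of 13 genes, 7 were tested, with 1 called higher and 3 lower in each comparison. Cdh19 and Cdh22, among the lower ones, passed the filter through the astrocytes alone. Of the other 5, 1 was called lower, beside 22.4% and 22.8% of all genes tested. Cdh11, the OB-cadherin of mesenchymal cells, stood at 13.7, 31.0 and 127 CPM in astrocytes, at 4.78, 7.97 and 8.85 CPM in mKate2- cells and at 6.07, 5.85 and 6.93 CPM in mKate2+ cells. The groups did not overlap, and the log2 fold changes were -2.96 ± 0.75 (adjusted P = 0.0099, edgeR) and -3.10 ± 0.74 (adjusted P = 0.00842). Without astrocyte replicate 3, they were -1.63 and -1.78, and Cdh11 was still called.

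Cdh22, a brain cadherin, and Cdh19, known from the Schwann cell lineage, were nearly without counts in the SB28 libraries. Cdh22 stood at 12.3, 3.79 and 9.96 CPM in astrocytes, at 0.04, 0.00 and 0.03 CPM in mKate2- cells and at 0.14, 0.03 and 0.35 CPM in mKate2+ cells. From pooled counts, 774 in astrocytes and 2 in mKate2- cells, the level was 389.6 times higher in astrocytes (95% counting interval 107 to 3223). Against the 18 counts of mKate2+ cells, it was 51.0 times higher (32.1 to 86.5). Without mKate2+ replicate 3, the log2 fold change of Cdh22 in mKate2+ cells went from -5.60 to -6.61. Cdh19 gave 633 counts in astrocytes, 5 in mKate2- and 6 in mKate2+ cells. It was called lower in both comparisons (adjusted P = 0.000424 and 5.17e-05, edgeR), as was Cdh22 (adjusted P = 8.08e-05 and 0.000688). Such intervals cover counting error only.

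The other type II genes detected were not called. Cdh24 stood at 8.59, 6.88 and 7.57 CPM in astrocytes, at 4.56, 5.46 and 4.93 CPM in mKate2- cells and at 5.58, 3.23 and 6.47 CPM in mKate2+ cells. Its log2 fold changes, -0.61 ± 0.21 (adjusted P = 0.0343, edgeR) and -0.53 ± 0.28 (adjusted P = 0.142), were short of the fold asked for a call. Cdh10, a cadherin of brain, stood at 1.39, 2.97 and 3.42 CPM in astrocytes, at 2.24, 2.26 and 3.45 CPM in mKate2- cells and at 3.05, 2.52 and 3.80 CPM in mKate2+ cells. Cdh5, the endothelial VE-cadherin, stood at 0.65, 0.37 and 5.64 CPM in astrocytes and at 0.33 to 1.14 CPM in the SB28 libraries, and the groups overlapped for both genes.

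Among the other numbered cadherins, Cdh13 was the most abundant. It encodes T-cadherin, which is anchored to the membrane by a lipid and lacks the catenin-binding tail, and stood at 484, 457 and 376 CPM in astrocytes, at 65.0, 107 and 88.9 CPM in mKate2- SB28 and at 82.7, 99.98 and 82.1 CPM in mKate2+ SB28. No SB28 library came near the astrocytes, with log2 fold changes of -2.32 ± 0.21 (adjusted P = 6.22e-05, edgeR) and -2.24 ± 0.17 (adjusted P = 4.53e-05). Cdh23, a component of the tip links of hair cells, stood at 1.27, 1.10 and 0.88 CPM in astrocytes and gave 1 count over the mKate2- libraries and 10 over the mKate2+ libraries, against 98 in astrocytes. It was called lower in both comparisons (adjusted P = 0.000344 and 0.00069, edgeR), but it had no SB28 library above 1 CPM and passed the filter through the astrocytes alone.

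**Figure D1:**
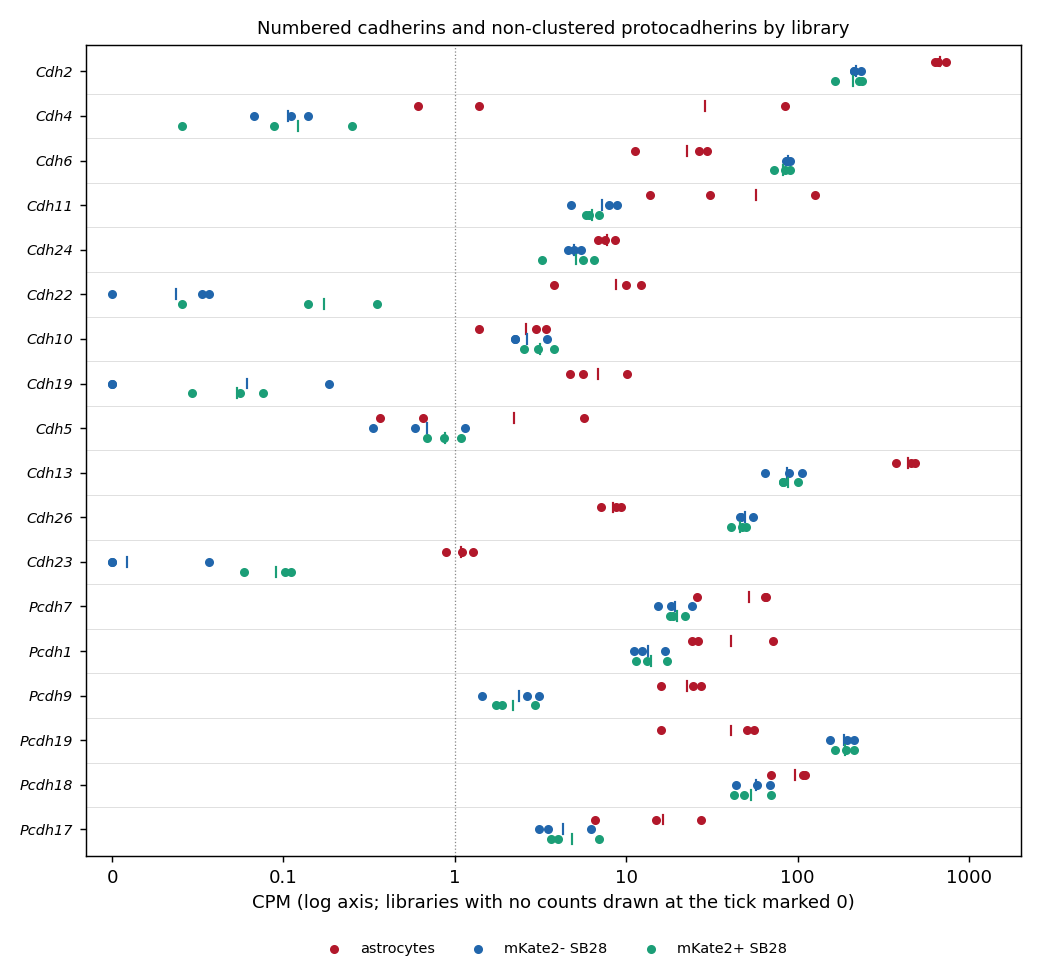
Level in CPM (log axis, with libraries without counts drawn at the tick marked 0) of the 18 numbered cadherins and non-clustered protocadherins detected. Each point is 1 library and each vertical mark a group mean (n = 3), and Cdh6, Cdh26 and Pcdh19 are the genes whose SB28 points all lie to the right of the astrocyte points.

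Of the 12 non-clustered protocadherins, 6 were tested, with 1 called higher and 4 lower in each comparison, beside 11.5% and 12.2% of all genes tested called higher and 22.4% and 22.8% lower. The higher one was Pcdh19, described above, and the summed delta-2 level was 249 ± 40.8 CPM in mKate2- and 249 ± 30.9 CPM in mKate2+ cells against 157 ± 23.4 CPM in astrocytes (SD, n = 3, not tested). Pcdh18, a delta-2 member that binds the adaptor Dab1, stood at 108, 111 and 70.1 CPM in astrocytes, at 43.8, 57.8 and 69.3 CPM in mKate2- cells and at 42.8, 48.5 and 70.1 CPM in mKate2+ cells. The log2 fold changes of -0.75 ± 0.23 (adjusted P = 0.0211, edgeR) and -0.77 ± 0.24 (adjusted P = 0.0265) were under the fold asked, and astrocyte replicate 3 lay within the range of the mKate2+ libraries. Pcdh17, a delta-2 member of synapses, was called lower at -1.90 ± 0.51 and -1.65 ± 0.51 (adjusted P = 0.0122 and 0.0249, edgeR). It stood at 6.58, 14.95 and 27.4 CPM in astrocytes, at 3.09, 6.27 and 3.52 CPM in mKate2- cells and at 3.99, 6.92 and 3.63 CPM in mKate2+ cells, where replicate 2 lay above astrocyte replicate 1. The call in mKate2+ cells was lost without astrocyte replicate 2 (-1.73) or 3 (-1.08), without mKate2+ replicate 1 (-1.51) or 3 (-1.47) and with the gene length trend removed (-1.30), and that in mKate2- cells without mKate2- replicate 1 (log2 fold change -1.70). The direction was the same in all of these fits.

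The delta-1 protocadherins Pcdh1, Pcdh7 and Pcdh9 were called lower in both comparisons, and their class summed to 116 ± 49.1 CPM in astrocytes, 35.1 ± 6.40 CPM in mKate2- and 35.8 ± 3.27 CPM in mKate2+ cells. Pcdh9, a delta-1 member of brain, stood at 15.9, 24.5 and 27.4 CPM in astrocytes, at 1.43, 2.62 and 3.08 CPM in mKate2- cells and at 1.75, 1.88 and 2.93 CPM in mKate2+ cells. Its fall by 3.22 ± 0.33 and 3.29 ± 0.30 on the log2 scale was the steepest among the delta-1 genes tested (adjusted P = 0.000118 and 9.59e-05, edgeR), with the groups well apart. Pcdh7, which binds phosphatase subunits through its tail, stood at 25.8, 65.6 and 64.9 CPM in astrocytes, at 15.2, 24.3 and 18.3 CPM in mKate2- cells and at 22.1, 18.8 and 18.1 CPM in mKate2+ cells. Pcdh1, known from airway epithelium, stood at 24.3, 26.1 and 71.8 CPM in astrocytes, at 11.1, 12.4 and 16.9 CPM in mKate2- cells and at 13.2, 11.5 and 17.2 CPM in mKate2+ cells. Neither gene overlapped between astrocytes and SB28, but the call of Pcdh1 rested on astrocyte replicate 3, without which its log2 fold changes were -0.90 and -0.81.

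**Figure D2:**
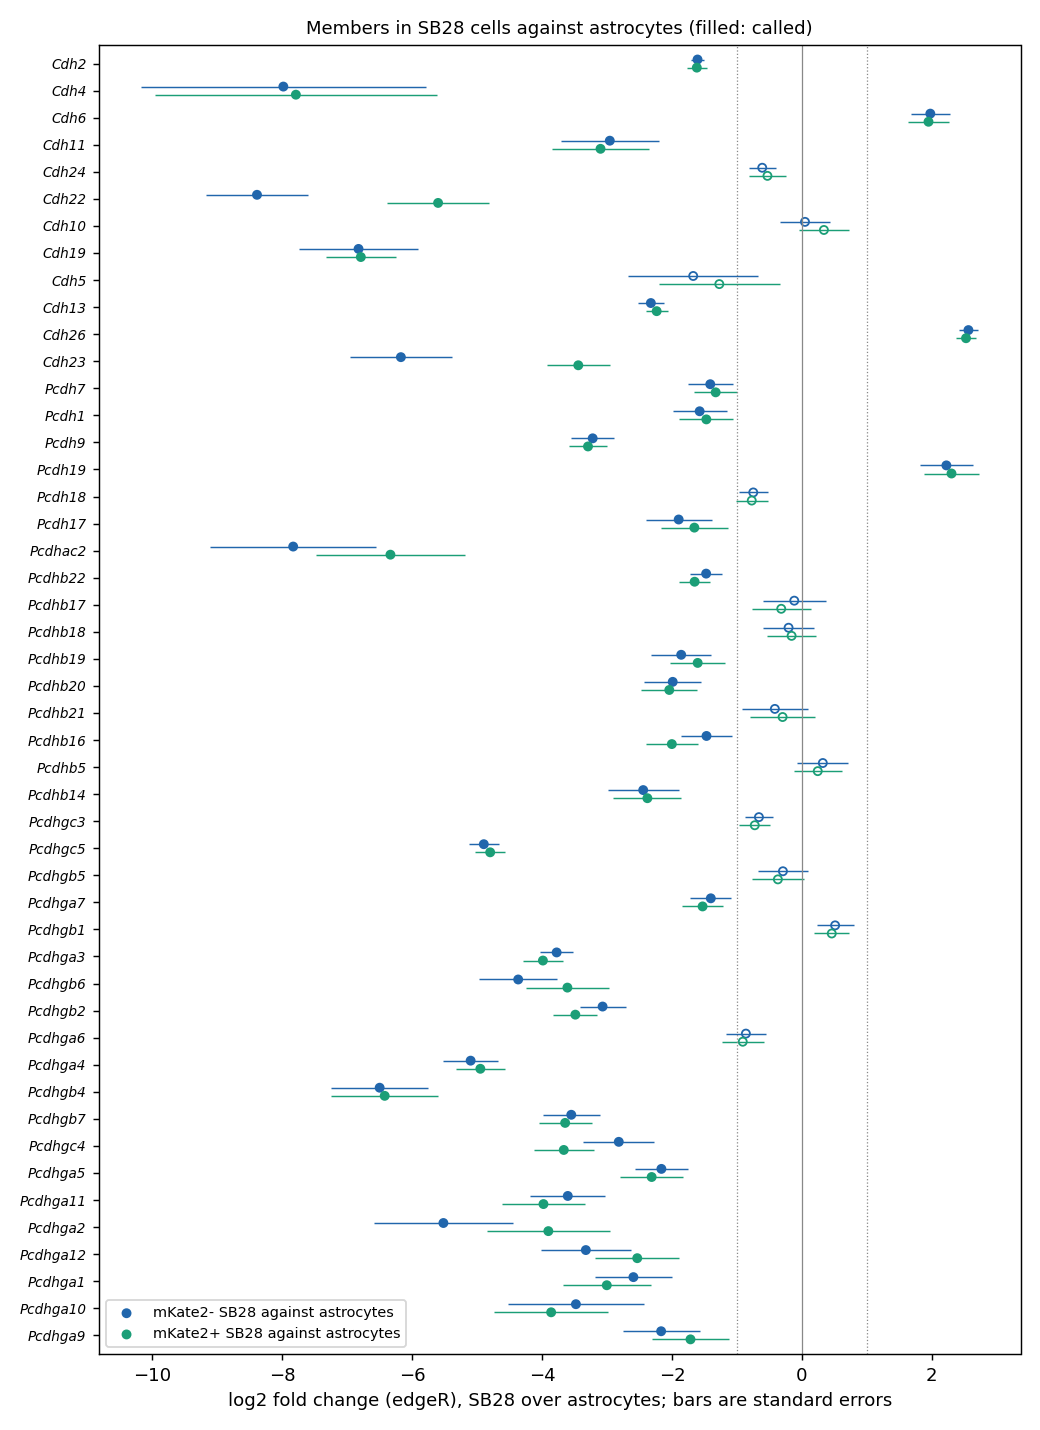
log2 fold change of the 48 members tested, mKate2- (blue) and mKate2+ (green) SB28 over astrocytes, with standard errors from edgeR as bars and filled points for called genes. Cdh6, Cdh26 and Pcdh19 lie above 1, and Cdh4, with an SE of 2.19 and 2.17, has the widest bars.

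Levels of different genes were compared per length, as RPKM, the CPM divided by the kilobases of exon not shared with another gene. In astrocytes, the order of mean RPKM began with Pcdhgc3 at 173 ± 55.7, Cdh2 at 84.1 ± 6.33, Cdh13 at 39.1 ± 5.03, Pcdhgc5 at 22.6 ± 2.52 and Pcdh18 at 18.0 ± 4.27 (SD, n = 3). In mKate2- SB28, it began with Pcdhgc3 at 108 ± 11.5, Cdh2 at 27.3 ± 1.46, Pcdh19 at 18.1 ± 2.85, Cdh26 at 16.3 ± 1.55 and Pcdh18 at 10.6 ± 2.38. Pcdh19 and Cdh26 did not differ beyond their spread in that order, nor did Pcdhgc5 and Pcdh18 in astrocytes, where Pcdh19 was 17th, Cdh26 20th and Cdh6 23rd. Overlap with antisense genes counted as shared, and Pcdhga10 had 0 unshared bases although it gave 9, 119 and 41 counts in astrocytes. The unshared length may thus differ from the length that was counted. The place of Pcdhgc3, with 1821 of its 5499 exonic bases unshared, depended on the length used. Over all exonic bases, it stood at 57.3 RPKM in astrocytes, below Cdh2, and at 35.7 RPKM in mKate2- and 33.0 RPKM in mKate2+ cells, still above Cdh2.

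The clustered protocadherins were mostly lower in SB28 cells, with exceptions in the beta and gamma clusters. Of 57 genes, 30 were tested, with 22 called lower, 8 not called and 0 called higher in each comparison, beside 22.4% and 22.8% of all genes called lower. Of the 22, 12 had no SB28 library above 1 CPM and passed the filter through the astrocytes alone. The gamma cluster summed to 568 ± 126 CPM in astrocytes, 237 ± 23.2 CPM in mKate2- and 219 ± 41.4 CPM in mKate2+ SB28 (SD, n = 3), the beta cluster to 60.3 ± 24.4, 29.5 ± 7.16 and 27.3 ± 2.54 CPM, and the alpha cluster to 3.92 ± 4.04, 0.125 ± 0.083 and 0.141 ± 0.132 CPM. Without astrocyte replicate 3, the alpha sum in astrocytes was 1.61 CPM. Alpha and gamma isoforms each share constant exons at their 3′ end. Reads there fall on several genes and were not counted for any, so their counts come mostly from the variable first exons. Beta genes and neighbouring isoforms resemble each other in sequence, so the division of reads among them is uncertain.

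In the gamma cluster, 1 gene led the counts in every library, with a larger share in the tumor cells. Pcdhgc3, a C-type isoform expressed outside neurons as well, stood at 220, 303 and 422 CPM in astrocytes, at 172, 208 and 209 CPM in mKate2- cells and at 204, 139 and 200.2 CPM in mKate2+ cells. Its log2 fold changes were -0.66 ± 0.21 (adjusted P = 0.0275, edgeR) and -0.72 ± 0.24 (adjusted P = 0.0319), under the fold asked for a call. Its share of gamma counts was 49.5%, 53.9% and 60.5% in the astrocyte libraries, 81.9%, 82.9% and 83.4% in the mKate2- libraries and 82.2%, 81.3% and 84.4% in the mKate2+ libraries. The ranges of astrocytes and SB28 did not overlap, and the widest 95% Wilson interval of these shares, that of mKate2- replicate 1, was 80.9% to 82.9%.

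Pcdhgc5, another C-type isoform, known from neurons, was called lower, and its share was smaller in the tumor cells. It stood at 102, 116 and 93.4 CPM in astrocytes, at 2.35, 3.96 and 3.99 CPM in mKate2- cells and at 4.52, 3.44 and 2.66 CPM in mKate2+ cells. All 6 SB28 libraries were far below the astrocytes, with log2 fold changes of -4.90 ± 0.23 (adjusted P = 6.79e-06, edgeR) and -4.80 ± 0.23 (adjusted P = 7.9e-06). Pcdhgb5 did not follow, at 22.2, 7.001 and 11.5 CPM in astrocytes, 10.9, 11.3 and 10.9 CPM in mKate2- cells and 11.6, 8.32 and 10.2 CPM in mKate2+ cells, with the SB28 libraries inside the astrocyte range. Of the 20 gamma genes tested, 16 were called lower in each comparison: Pcdhgc4, Pcdhgc5, Pcdhga1, Pcdhga2, Pcdhga3, Pcdhga4, Pcdhga5, Pcdhga7, Pcdhga9, Pcdhga10, Pcdhga11, Pcdhga12, Pcdhgb2, Pcdhgb4, Pcdhgb6 and Pcdhgb7. Of these 16, 10 in mKate2- and 9 in mKate2+ cells had no SB28 library above 1 CPM and passed the filter through the astrocytes alone. Of the other 10 and 11 gamma genes tested, 6 and 7 were called lower, beside 22.4% and 22.8% of all genes tested. The call of Pcdhga9 in mKate2+ cells was lost with the replicate block, without a filter and without any single mKate2+ library. Without astrocyte replicate 3, neither Pcdhga2, Pcdhga9 nor Pcdhga10 was tested, their means in astrocytes being 2.34, 0.836 and 2.003 CPM against 6.74, 0.984 and 1.72 CPM with it, and Pcdhga1 went from -2.59 to -1.91 in mKate2- and from -3.003 to -2.33 in mKate2+ cells on the log2 scale, still called. Pcdhgb4, for example, gave 923 counts in astrocytes, 9 in mKate2- and 11 in mKate2+ cells. Pcdhgc3, Pcdhgb1, Pcdhgb5 and Pcdhga6 were not called.

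The spread of counts over isoforms was summarised by the effective number of genes, the inverse of the summed squared shares, which is the number of equally used genes that would give the same concentration. For the gamma cluster it was 2.93 ± 0.35 in astrocytes, 1.45 ± 0.03 in mKate2- and 1.46 ± 0.05 in mKate2+ SB28 (SD, n = 3). With the C-type genes left out, it was 11.6 ± 2.57, 5.47 ± 0.23 and 5.66 ± 0.21, and Pcdhgb5 led in all 6 SB28 libraries with 29.4% to 32.1% of those counts. The leading gene differed among the astrocyte libraries, being Pcdhgb5, Pcdhgb6 and Pcdhga7 in replicates 1, 2 and 3. With 3 libraries against 3, an exact permutation test cannot give a two-sided P below 0.10, and none was run on these numbers.

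**Figure D3:**
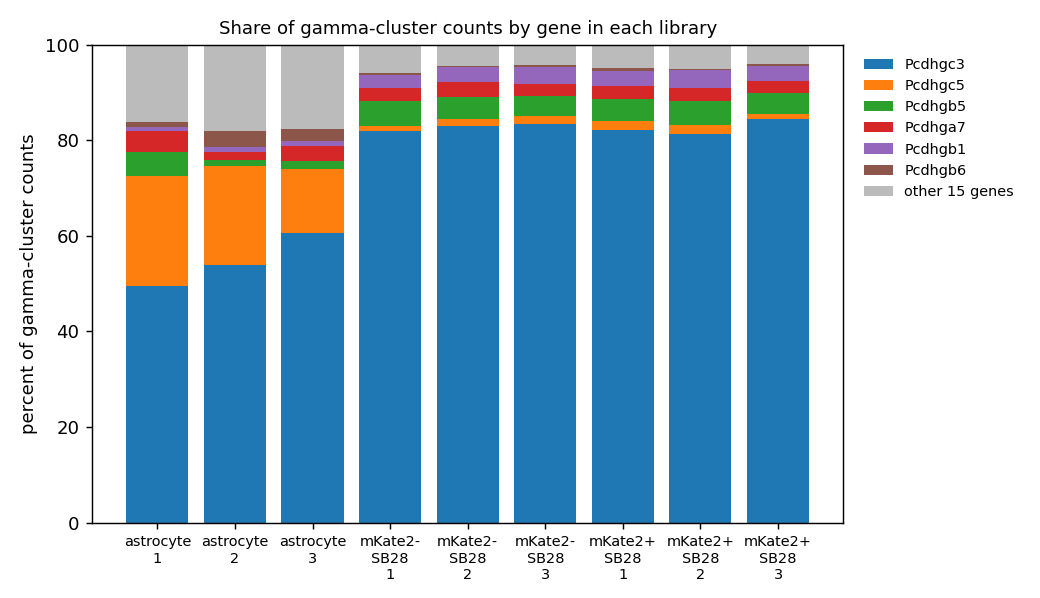
Share of gamma-cluster counts (percent, vertical axis) by gene in each of the 9 libraries. Pcdhgc3 takes 49.5% to 60.5% in astrocytes and 81.3% to 84.4% in SB28 cells, and Pcdhgc5 takes 13.4% to 23.0% in astrocytes and 1.12% to 2.00% in SB28 cells.

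In the beta cluster, 5 genes were called lower and 4 were not called. Of 22 beta genes, 9 were tested, and Pcdhb14, Pcdhb16, Pcdhb19, Pcdhb20 and Pcdhb22 were called lower in each comparison, while Pcdhb5, Pcdhb17, Pcdhb18 and Pcdhb21 were not called. Pcdhb14, and in mKate2+ cells Pcdhb16 as well, passed the filter through the astrocytes alone. Of the other 8 in mKate2- and 7 in mKate2+ cells, 4 and 3 were called lower, beside 22.4% and 22.8% of all genes. Pcdhb22, the leading beta gene of every astrocyte library, stood at 12.9, 11.6 and 18.3 CPM in astrocytes, at 3.97, 6.13 and 5.13 CPM in mKate2- cells and at 3.88, 4.58 and 4.45 CPM in mKate2+ cells, without overlap. Its log2 fold changes were -1.47 ± 0.25 (adjusted P = 0.00142, edgeR) and -1.65 ± 0.24 (adjusted P = 0.000771). Pcdhb17 stood at 3.27, 7.43 and 13.5 CPM in astrocytes, at 4.41, 8.89 and 8.68 CPM in mKate2- cells and at 5.13, 6.41 and 6.82 CPM in mKate2+ cells. Pcdhb18 stood at 3.52, 9.14 and 10.1 CPM, at 4.86, 8.11 and 6.50 CPM and at 5.94, 6.54 and 6.85 CPM in the same order. Both genes lay within the astrocyte range, and 1 or the other led the beta counts in each SB28 library. The effective number of beta genes was 7.24 ± 0.76 in astrocytes, 6.21 ± 0.40 in mKate2- and 6.37 ± 0.13 in mKate2+ cells.

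Of 14 alpha genes, only Pcdhac2, a C-type isoform, passed the filter. It stood at 0.90, 1.90 and 7.51 CPM in astrocytes, at 0.04, 0.00 and 0.00 CPM in mKate2- cells and at 0.00, 0.03 and 0.09 CPM in mKate2+ cells. It was called lower in both comparisons (adjusted P = 0.00114 and 0.00229, edgeR), but it had no SB28 library above 1 CPM and passed the filter through the astrocytes alone. Replicate 3 held 264 of the 348 astrocyte counts, and without it the gene did not pass the filter and the calls were lost. From 348 pooled counts in astrocytes against 1 in mKate2- cells, the ratio was 350.3 (95% counting interval 62.5 to 13877), and against 4 in mKate2+ cells it was 103 (40.0 to 381). From the 84 counts of the other astrocyte libraries, these ratios were 137 (23.9 to 5457) and 40.2 (15.1 to 151).

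**Figure D4:**
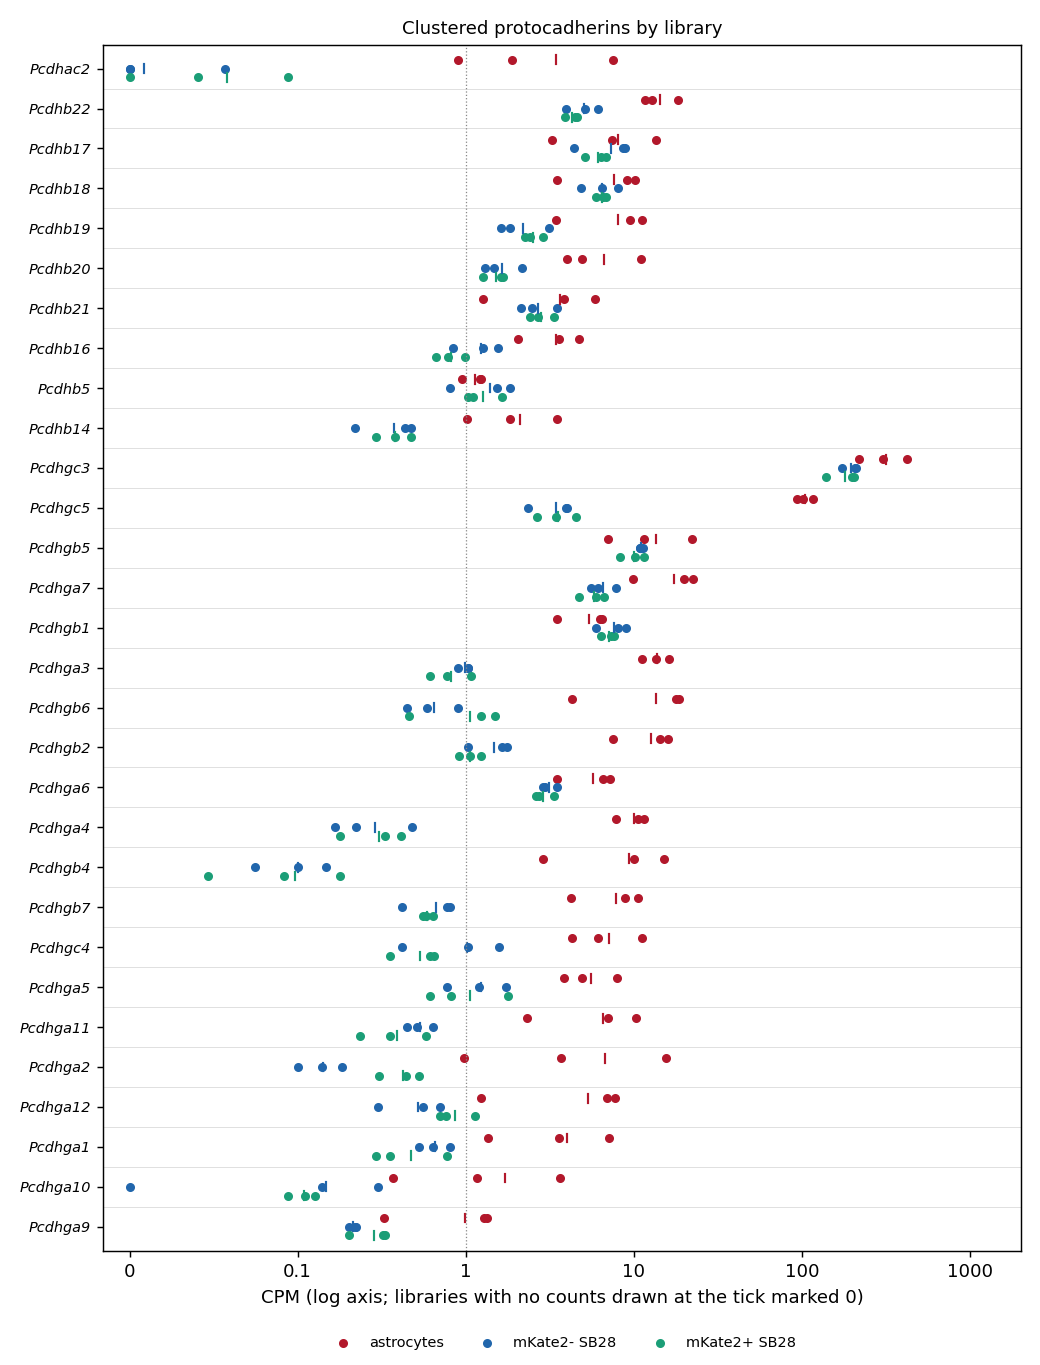
Level in CPM (log axis, with libraries without counts drawn at the tick marked 0) of the 30 clustered protocadherins detected, 1 alpha, 9 beta and 20 gamma genes. Each point is 1 library and each vertical mark a group mean (n = 3), and Pcdhgc3 is the highest gene in every library.

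No member was called between SB28 cells with and without mKate2 signal, where 33 of the 92 members could be tested. The thresholds that the study set for genes rising in mKate2+ cells were used for both directions, namely a fold above 1.5, an unadjusted P under 0.05 and a count above 50. The methods do not say which count, and the mean over the 6 SB28 libraries after scaling was taken. Of 33 members tested, 0 were called higher and 0 lower (edgeR), when 0.194% of 11854 genes were called higher and 0.169% lower. The mean count was under the 50 asked for a call in 8 of the 33. Across all genes, 2.03% had an unadjusted P under 0.05, and 0 of the 33 members did. No gene of any kind passed an adjusted P of 0.05, the lowest being 0.923 in this fit and 0.0572 without a filter. At an unadjusted P under 0.05, DESeq2 gave 1 of 80 members, beside 432 of all 25423 genes tested. The fit without a filter gave 2 of 80, beside 1271 of 25423 genes, and that with all 9 libraries 2 of 48, beside 197 of 13450. With the replicate block and the length trend removed, it was 2 of 33, beside 577 of 11854 genes. The calls over all genes depended on single libraries, going from 23 higher and 20 lower to 310 and 70 without mKate2+ replicate 1, to 6 and 16 without replicate 2 and to 233 and 36 without replicate 3, but in each of these fits 0 members were called. The 7 members with the highest mean CPM in the tumor cells gave log2 fold changes of -0.02 ± 0.12 for Cdh2, -0.07 ± 0.13 for Pcdhgc3, 0.07 ± 0.15 for Pcdh19, -0.04 ± 0.08 for Cdh6, 0.08 ± 0.19 for Cdh13, -0.03 ± 0.21 for Pcdh18 and -0.05 ± 0.10 for Cdh26. The extremes were Pcdhgb6 at 0.75 ± 0.47 and Pcdhgc4 at -0.85 ± 0.50, both of few counts. Among the 48 members detected, every mKate2+ library was above every mKate2- library for 3, Cdh23, Pcdhga2 and Pcdhga12, beside 2.2% of 13450 genes. For 0 of the 48 was every mKate2+ library below, beside 6.69% of all genes, and the groups overlapped for the other 45. None of the 3 passed the filter of this comparison. Pcdhga12, for example, stood at 0.70, 0.56 and 0.30 CPM in mKate2- cells and at 1.14, 0.76 and 0.70 CPM in mKate2+ cells.

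**Figure D5:**
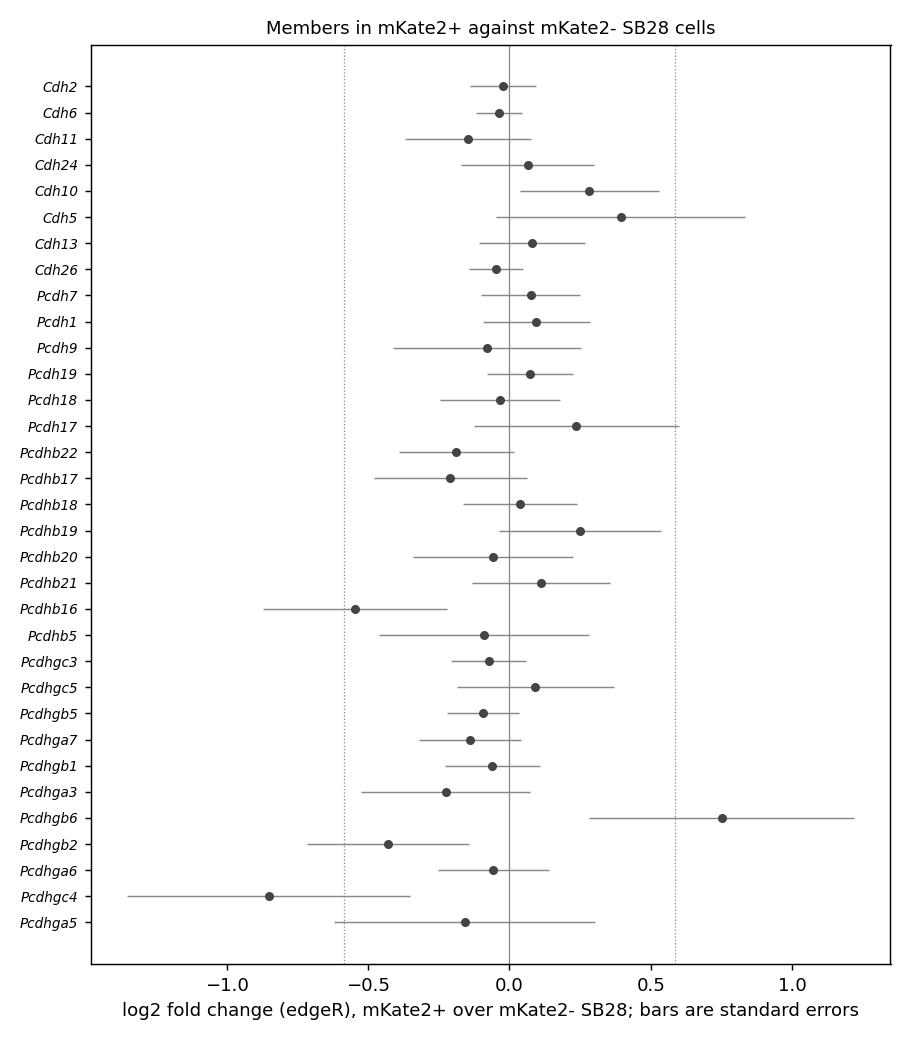
log2 fold change of the 33 members tested in mKate2+ over mKate2- SB28, with standard errors from edgeR as bars and dotted lines at a fold of 1.5 in either direction. Pcdhgb6 at 0.75 and Pcdhgc4 at -0.85 lie outside the dotted lines, with SEs of 0.47 and 0.50.

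Beyond these 48 genes, 44 members did not pass the filter in either comparison with astrocytes, and 4 of them (Cdh7, Pcdha3, Pcdha4 and Pcdhb1) had no count in any library. The highest single value among them was that of Cdh20 in astrocyte replicate 3, at 10.2 CPM, and Cdh20, Pcdh10 and Pcdh8 averaged 3.88, 2.10 and 1.40 CPM in astrocytes against 0.02 to 0.13 CPM in SB28 cells. These astrocyte means came mostly from replicate 3, without which they were 0.709, 0.362 and 0.117 CPM.

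Genes that work with cadherins were described by list. Of 13 catenins and cytoplasmic partners, 12 were tested in each comparison with astrocytes. Of these, 0 were called higher and 3 lower, beside 22.4% and 22.8% of all genes called lower. The 3 were Ctnna2, Ctnnd2 and Plekha7, named after their values were seen, while the abundant Ctnnb1, Ctnna1 and Vcl were not called. Ctnna2 and Plekha7 had no SB28 library above 1 CPM and passed the filter through the astrocytes alone. Ctnna2 and Ctnnd2, the neural alpha- and delta-catenins, stood at 4.83, 6.91 and 17.1 CPM and at 81.7, 73.0 and 73.8 CPM in astrocytes and at no more than 0.153 and 1.17 CPM in any SB28 library. Without astrocyte replicate 3, the log2 fold change of Ctnna2 went from -7.11 to -6.41 in mKate2- and from -6.01 to -5.33 in mKate2+ cells, the 3 lower calls stood, and 2 and 1 of the 12 were called higher. Of 17 atypical cadherins, 8 were tested and 7 called lower, while Clstn1 was not called. Among the 7, Celsr1, Cdhr1, Clstn3 and Fat4 had no SB28 library above 1 CPM and passed the filter through the astrocytes alone. The other lower calls were Fat1, Dchs1 and Celsr2. The 17 genes summed to 993, 996 and 1695 CPM in the astrocyte libraries, and without replicate 3, 7 were tested and 6 called lower, since Clstn3 no longer passed the filter. Of 9 nectins and nectin-like molecules, 7 were tested and 6 called lower, Cadm1 and Nectin3 among them, while Pvr was not. Cadm2, also called lower, had no SB28 library above 1 CPM and passed the filter through the astrocytes alone. Of 9 desmosomal cadherins, 0 passed the filter, the highest being Dsc2 at 0.91 CPM in 1 astrocyte library.

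Among repressors of E-cadherin, 2 of 8 tested were called higher and 2 lower in each comparison, beside 11.5% and 12.2% of all genes higher and 22.4% and 22.8% lower. Snai1 (log2 fold changes 1.43 ± 0.14 and 1.49 ± 0.17) and Twist2 (2.79 ± 0.15 and 2.74 ± 0.20) were called higher, and Zeb1 (-1.05 ± 0.12 and -1.15 ± 0.12) and Twist1 (-1.34 ± 0.19 and -1.15 ± 0.26) lower, with Tcf4 and Tcf3 not called. The call of Zeb1 in mKate2- cells was lost without mKate2- replicate 1. Of 14 regulators of the protocadherin clusters, such as CTCF and cohesin, Rad21, a cohesin subunit, was called higher in mKate2- cells (1.02 ± 0.16) and missed the fold asked in mKate2+ cells (0.90 ± 0.20). Stag2, another subunit, was called lower in mKate2+ cells (-1.08 ± 0.17) and missed it in mKate2- cells (-0.90 ± 0.11). Neither was called between the tumor groups (unadjusted P = 0.27 and 0.184, edgeR). The call of Rad21 was lost without astrocyte replicate 1 and that of Stag2 without mKate2+ replicate 2. Without astrocyte replicate 3, 2 of the 14 were called higher in each comparison and 0 and 1 lower, and 3 of the 8 repressors of E-cadherin were called higher. Smc3 and Pds5a were not called. None of the 8 genes of the cleavage list, which holds proteases and further subunits of gamma-secretase, was called. Adam10 and Mmp14, metalloproteases, and Ncstn, the gamma-secretase subunit nicastrin, were the most abundant. In mKate2+ against mKate2- SB28, 0 genes of these lists were called.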

How the data were processed

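RNA was sequenced from sorted cells of 3 groups with 3 libraries each. The deposited values are raw counts per Ensembl gene. The authors trimmed reads with Trimmomatic 0.36, mapped them to GRCm38 with STAR 2.5.2b and counted uniquely assigned reads with featureCounts (Subread 1.5.2) to make these counts; the annotation release and strand setting are not given in the sources used here, so overlapping and antisense genes cannot be separated. Reads in the constant exons of the alpha and gamma protocadherins overlap several genes and are not in the counts. The labels and the methods of the study differ on which cells carried the CellTrace Violet dye, and groups were taken from the sample titles.

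Symbols and gene lengths came from GENCODE M21 and promoters from RefSeq (GRCm38.p6). Members, lists and tests were chosen with earlier results of these data known. Every member above 1 CPM in 2 libraries was named, with values in every library for up to 5 members with the highest mean CPM of each non-clustered class and 3 of each cluster, and of each pathway list tested the 3 most abundant genes. Counts were tested in R 4.3.3 with edgeR 4.0.16 (TMM, quasi-likelihood F-test, genes above 1 CPM in 2 of the 6 libraries compared, Benjamini-Hochberg over all genes tested). SE is the log2 fold change divided by the square root of F. Replicates of a group differed by more than counting noise. The edgeR procedure was tested on simulated counts with known changes: its estimates showed little bias, but it missed some of the smaller changes, short of the recovery first aimed for, so an uncalled gene may still have changed. Alternatives were DESeq2 1.42.0, RLE scaling, other filters, all 9 libraries in the fit, a replicate block, removal of a gene length trend and leaving out each library. All 9 columns were used.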

Additional observations from a re-analysis of the deposited data

How the results depend on the processing

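The 3 members higher in tumor cells (Cdh6, Cdh26 and Pcdh19) were called in every alternative of both comparisons with astrocytes, and 0 members were called between mKate2+ and mKate2- SB28 in any. The count of members lower in mKate2- cells was 33 of 48 tested, beside 2994 of all 13356 genes tested. With at least 10 counts asked of every library, it was 21 of 35, beside 2039 of 12220 genes. There, 12 called members were no longer tested. It was 46 of 88 without a filter (4119 of 26862 genes) and 40 of 88 by DESeq2 (3882 of 26862 genes). In mKate2+ cells, these counts were 33 of 48, 23 of 38, 41 of 87 and 40 of 87. The genes called lower there were 3041 of 13342, 2055 of 12216, 4130 of 27135 and 4048 of 27135. Leaving out 1 library gave 27 to 32 lower members in mKate2- and 26 to 32 in mKate2+ cells, with 42 to 48 tested. The labels repeat replicate numbers without saying what a number marks, and deviations of same-numbered libraries from their group means correlated at 0.054, 0.042 and 0.023 (mKate2- and astrocytes), -0.147, 0.066 and 0.251 (mKate2+ and astrocytes) and -0.004, 0.136 and 0.17 (mKate2+ and mKate2-), so the numbers were not taken to pair the libraries; whether a number marks a shared co-culture is not given in the sources used here. Not every library correlated best with its own number. With the replicate block, 33 members were lower in mKate2- and 32 in mKate2+ cells, where Pcdhga9 was lost. Of 1611 alternative values of single genes, 1543 kept their direction and call, 33 lost the call, 4 gained it and 31 changed sign.

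The fitted fold changes of Cdh4, Cdh19, Cdh22, Cdh23, Pcdhac2, Pcdhga10 and Pcdhgb4, with few counts in SB28 cells, moved by more than 1.5 times in at least 1 comparison when 1 SB28 library was left out, that of Cdh19 in mKate2- cells from -6.83 to -10.7 without replicate 1. In the comparisons with astrocytes, the sign changes fell on 6 uncalled members, and the cause was not tested. Cdh10 in mKate2- cells was at -0.037 with at least 10 counts in every library and at -0.25 to 0.28 with 1 library left out. Pcdhb17 in mKate2- cells was at 0.020 with the replicate block. With 1 library left out, it ranged from -0.49 to 0.45 in mKate2- and from -0.69 to 0.24 in mKate2+ cells, Pcdhb18 from -0.55 to 0.040 and from -0.49 to 0.076, Pcdhb21 from -0.82 to 0.077 and from -0.70 to 0.19, and Pcdhgb5 from -0.62 to 0.28 and from -0.71 to 0.20. Pcdhb5 in mKate2+ cells ranged from -0.037 to 0.40, and Pcdhb18 was at 0.011 there with the replicate block and the length trend removed. Between mKate2+ and mKate2- SB28, 13 of the 33 members were above 0, and 18 with the length trend removed or 19 with the replicate block as well. Of the members with the highest CPM, Cdh2 was then at 0.0762 and 0.0757, Cdh6 at 0.0808 and 0.080, and Pcdh18 at 0.0418 and 0.0318. With 1 library left out, Cdh2 ranged from -0.0961 to 0.0881, Pcdhgc3 from -0.155 to 0.0448, Pcdh19 from -0.0665 to 0.182, Cdh13 from -0.0857 to 0.26, Pcdh18 from -0.257 to 0.123 and Cdh26 from -0.103 to 0.0251.

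The effective number of isoforms moved with the measure. From RPKM, it was 2.15 in astrocytes, 1.26 in mKate2- and 1.26 in mKate2+ cells for the gamma cluster, and 8.40, 6.48 and 6.64 for the beta cluster. From genes with at least 10 counts, the beta values were 6.93, 5.75 and 5.97, and the gamma values 2.93, 1.44 and 1.45. With 3 libraries a group, smaller changes in genes near 1 CPM may have been missed. Pcdhga9, at 0.98 CPM in astrocytes, passed the filter through the astrocytes alone and was called at log2 fold changes of -2.17 ± 0.59 and -1.71 ± 0.59.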

Other observations

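Pcdhgb8, a gene of the gamma cluster annotated as a polymorphic pseudogene and so not counted among the members, stood at 19.0, 21.4 and 23.1 CPM in astrocytes, at 1.21, 1.06 and 1.21 CPM in mKate2- SB28 and at 1.00, 0.51 and 0.88 CPM in mKate2+ SB28. BC037039, an antisense gene of the same region, stood at 2.33, 3.18 and 2.70 CPM in astrocytes and between 1.86 and 2.46 CPM in the SB28 libraries. The symbol Pcdha11 was carried by 2 Ensembl identifiers, so the 92 members have 91 symbols.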
